A study of Mus musculus with 20 samples.

Results

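Secretory granules store gonadotropins until gonadotropin-releasing hormone (GnRH) raises calcium in the gonadotrope, the pituitary cell that makes luteinizing and follicle-stimulating hormone. 6 genes of this machinery were followed: Syt4, Snap25, Rab3d, Cadps, Chga and Chgb. Members were taken by name, as every probe set that the platform annotation gives to them, which came to 6 of 8251 genes and 9 of 12488 probe sets. 8 of the 9 probe sets, and all 6 genes, passed the filter on low signals and were tested. A probe set is a group of array probes read as 1 value.

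Granules are packed with hormone and with granins, acidic proteins that condense in the granule matrix. A granule is brought to the plasma membrane by Rab GTPases, is made ready for release by priming factors, and fuses when SNARE proteins of the granule and of the plasma membrane zip together. Synaptotagmins, most of which bind calcium, tie that fusion to the calcium signal. In gonadotropes GnRH acts through a receptor that releases calcium from stores and activates protein kinase C and MAP kinases, and its pulse frequency is known to set which gonadotropin gene is favoured.

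The cells were LβT2, an immortalized mouse gonadotrope line grown here on microcarrier beads and perifused, that is, kept in a column under flowing serum-free medium, for 4 h. GnRH at 100 nM was given as 1 pulse, as 2, 4 or 8 pulses, or continuously (tonic), and GnRH at 10 nM as 1, 4 or 8 pulses or continuously. A pulse lasted 2 min, with 118, 58 or 28 min between the pulses of the groups with 2, 4 and 8 of them, and unstimulated columns received no GnRH. Each of the 10 groups had 2 Affymetrix arrays, 20 in all, and this number limits the precision of every value. Titles carry a letter, A or D for unstimulated and 100 nM arrays and B or C for 10 nM arrays, so dose and letter cannot be told apart wherever 10 nM arrays meet others. No label says that the arrays of a group came from separate cultures, so p-values measure the spread between these samples, which may be technical. A second label field contradicts the title in 8 of the 20 samples, and groups here follow the titles. The samples whose labels agree keep array A alone of the unstimulated and of each 100 nM group. At 10 nM they keep array B alone after 1 pulse and under tonic GnRH. A call lost with these samples cannot be told apart from the loss of arrays. With groups from that second field limma called 0 of the 6 genes in each of the 18 comparisons, with a lowest adjusted p of 0.28. Of 108 tests 4 had an unadjusted p under 0.05, all 4 of them Chgb. The share of all probe sets called with those groups is not given here, so these counts do not say whether the loss is particular to the 6 genes.

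The arrays had been scaled alike, with median signals of 705 to 836. A 3′ to 5′ signal ratio of the Gapdh control, a sign of RNA or labelling quality, was 1.21 to 1.69 on 3 arrays (4 pulses of 100 nM A and D, 8 pulses of 100 nM A) and 0.900 to 1.08 on the other 17. Of the gonadotrope markers, Cga (72648 to 137496), Nr5a1, Pitx1 and Lhb (2083 to 4285) were above the filter on all 20 arrays, Gnrhr on 19 and Fshb on 1. Over the 100 nM patterns the gonadotrope markers Cga (log2 change 0.51) and Egr1 (2.35) were past the threshold. Under tonic 100 nM Cga (0.58) and Egr1 (3.76) were higher, and Pitx1 (-1.10), Gnrhr (-0.75) and Nr0b1 (-0.58) lower. Of 15 markers of other cell types on the array, Pomc, Tshb, Trhr, Ptprc and S100b were above the filter on 0 arrays. Another 6 of the 15 (Gh, Ghrhr, Col1a1, Pecam1, Epcam and Hba-a1) were above it on all 20. Signals of these 15 genes summed to 11038 to 13875 on the unstimulated arrays, 10961 to 20144 at 10 nM and 12843 to 21722 at 100 nM. Among them Crhr1 (log2 change 1.53), Cd68 (1.34) and Epcam (0.74) were higher and Prl (-1.27) lower over the 100 nM patterns, and Gh, at 2141 to 3134, was not past the threshold. Their part in the results below was not tested. In RNA from whole columns, fewer cells of a type and less RNA per cell cannot be told apart.

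Synaptotagmin 4 and Snap25 were higher under 100 nM GnRH, while Rab3d and Cadps were lower and the chromogranins Chga and Chgb did not pass the test. Over the 5 patterns of 100 nM together, Syt4 was 2.63-fold and Snap25 2.07-fold above the unstimulated arrays, and Rab3d was 1.69-fold and Cadps 1.60-fold below them. 4 of the 6 genes were called, 2 in each direction, where 14.2% of the 8491 tested probe sets were called. The 6 genes were chosen with earlier results of these data known. A higher share called among them, here and below, is therefore no test of the group. The members' median log2 change was 0.15, and that of all tested probe sets was -0.05. Changes are log2 fold changes of signal + 166.8, which understate the change of dim probe sets, and adjusted p comes from limma over all tested probe sets, with a threshold of 0.05.

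**Figure D1:**
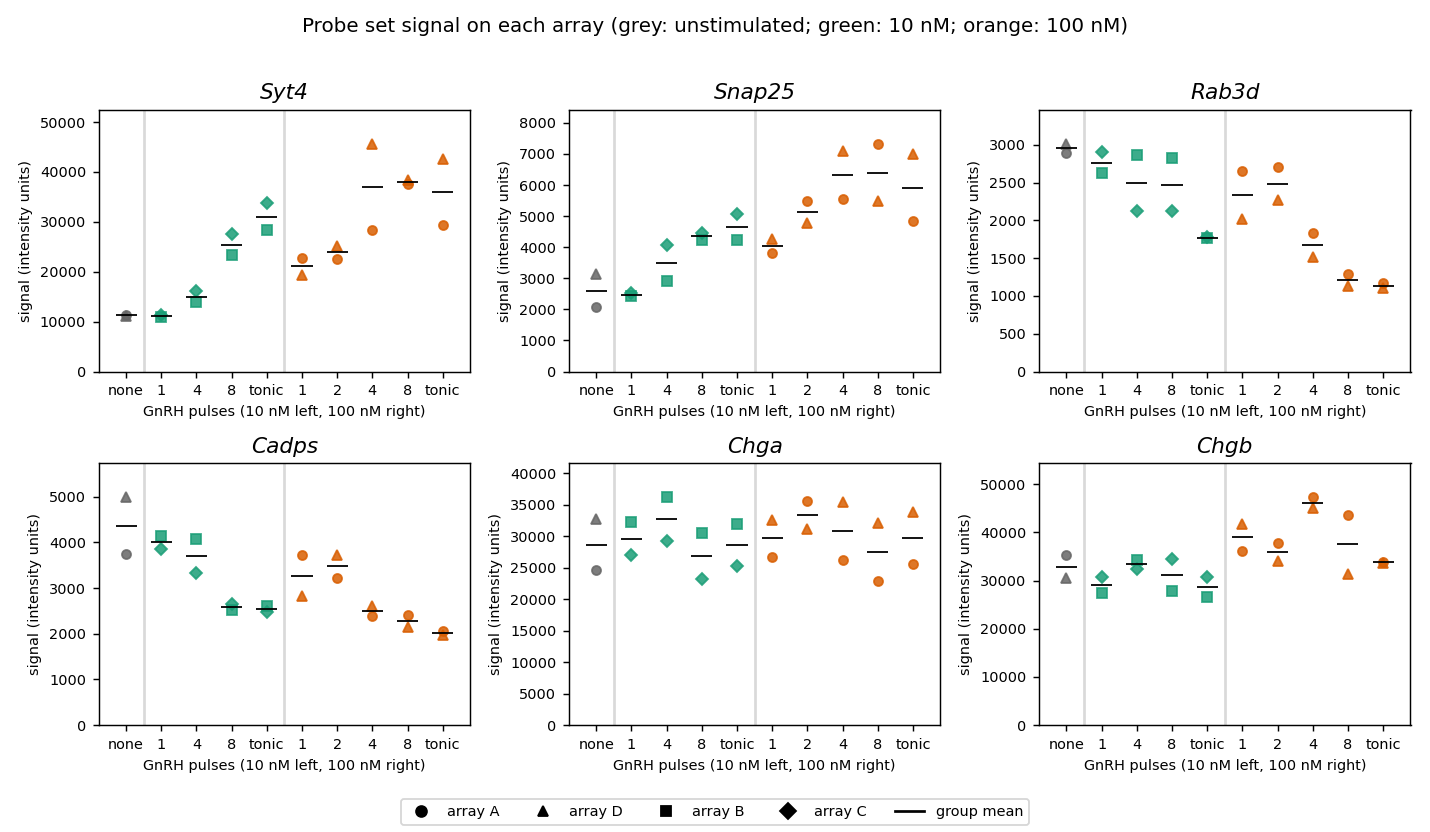
Signal in intensity units (linear axis from 0) on each of the 20 arrays for the 6 genes, by GnRH pattern; shapes mark the array letter and bars the mean of the 2 arrays of a group. Syt4 climbs from 11234 and 11327 to between 28374 and 45602 at 4 or 8 pulses and tonic 100 nM, Rab3d falls to between 1108 and 1827 in the same groups, and Chga shows no step.

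Syt4 encodes an atypical synaptotagmin of secretory vesicles that binds calcium weakly and is known as an activity-induced gene in neuronal cells. Its unstimulated signals were 11327 and 11234. At 10 nM the arrays B and C read 10966 and 11313 after 1 pulse, 13880 and 16114 after 4, 23328 and 27516 after 8, and 28277 and 33727 under tonic GnRH. 1 pulse of 10 nM therefore lay around the unstimulated values, and the other 6 arrays of 10 nM lay above both of them. At 100 nM the arrays A and D read 22843 and 19300 after 1 pulse, 22516 and 25213 after 2, 28374 and 45602 after 4, 37526 and 38481 after 8, and 29454 and 42511 under tonic GnRH. All 10 arrays of 100 nM were above both unstimulated arrays. The change over the 100 nM patterns was 1.40 ± 0.16 (standard error), with an adjusted p of 1.3e-05, and it was 1.27 among the A arrays and 1.52 among the D arrays. In the order of group means, 8 pulses, 4 pulses and tonic of 100 nM came first with overlapping arrays, and tonic 10 nM overlapped the last of these. A gap separated tonic 10 nM from 8 pulses of 10 nM, another 1 pulse of 100 nM from 4 pulses of 10 nM, and one more 4 pulses of 10 nM from the unstimulated arrays and 1 pulse of 10 nM, which overlapped.

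Snap25 encodes the SNARE of the plasma membrane that pairs with a syntaxin and with VAMP on the granule. The unstimulated arrays read 2063 and 3124, so A and D differed more here than for Syt4. At 10 nM the arrays B and C read 2430 and 2520 after 1 pulse, 2903 and 4077 after 4, 4233 and 4459 after 8, and 4232 and 5057 under tonic GnRH. 5 of these 8 arrays exceeded both unstimulated arrays. At 100 nM the arrays A and D read 3828 and 4265 after 1 pulse, 5500 and 4791 after 2, 5559 and 7109 after 4, 7319 and 5485 after 8, and 4834 and 7002 under tonic GnRH. Again all 10 arrays of 100 nM were above both unstimulated ones. The change over the 100 nM patterns was 1.05 ± 0.17 (adjusted p = 0.00062), 1.29 among the A and 0.81 among the D arrays. Each group overlapped its neighbours in the order of means, from 8 pulses of 100 nM (mean 6402) down to 1 pulse of 10 nM (mean 2475).

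Rab3d encodes a small GTPase of the Rab3 family, which sits on secretory granules and takes part in their docking and release. Its unstimulated signals were 2893 and 3009. At 10 nM the arrays B and C read 2627 and 2899 after 1 pulse, 2871 and 2127 after 4, 2820 and 2122 after 8, and 1763 and 1779 under tonic GnRH. 7 of these 8 arrays were below both unstimulated arrays, with the tonic pair well apart from the rest. At 100 nM the arrays A and D read 2655 and 2019 after 1 pulse, 2700 and 2268 after 2, 1827 and 1510 after 4, 1289 and 1135 after 8, and 1168 and 1108 under tonic GnRH. All 10 arrays of 100 nM were below both unstimulated arrays, and 8 pulses and tonic overlapped each other and lay below every other group. The change over the 100 nM patterns was -0.75 ± 0.15 (adjusted p = 0.0026), -0.62 among the A and -0.89 among the D arrays.

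Cadps encodes CAPS1, a factor that primes dense-core granules for calcium-triggered release. On its brighter probe set the unstimulated arrays read 3755 and 4982. At 10 nM the arrays B and C read 4142 and 3853 after 1 pulse, 4080 and 3319 after 4, 2523 and 2643 after 8, and 2604 and 2468 under tonic GnRH. 8 pulses and tonic of 10 nM thus lay below all other 10 nM arrays, and 5 of the 8 arrays were below both unstimulated ones. At 100 nM the arrays A and D read 3713 and 2831 after 1 pulse, 3218 and 3731 after 2, 2386 and 2615 after 4, 2403 and 2145 after 8, and 2062 and 1980 under tonic GnRH. All 10 arrays of 100 nM were below both unstimulated arrays, though 2 pulses D and 1 pulse A lay close to array A of the unstimulated pair. The change over the 100 nM patterns was -0.68 ± 0.14 (adjusted p = 0.0030), -0.45 among the A and -0.90 among the D arrays. The second probe set of Cadps read 495 to 1424 and changed by -0.74 ± 0.18 (adjusted p = 0.0085), and the suffix of the brighter one marks probes shared within a gene family. The tested probe set of Chgb and the second one of Chga carry the same suffix. Without array D of the unstimulated group, Cadps moved to -0.48 (adjusted p = 0.14) and Rab3d to -0.73 (0.0564), so 2 of the 6 genes were then called, against 4 with both arrays. Other than with groups from the second label field, adjusted p over the alternatives reached 0.301 for Cadps and 0.225 for Rab3d at most, 0.0109 for Syt4 and 0.0464 for Snap25; the values for Cadps and Rab3d come from the 12 samples whose labels agree.

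Chga and Chgb encode chromogranins A and B, granins that help form the granule and are cut into peptides. Both were bright in every group, with Chga at 22915 to 36140 and Chgb at 26649 to 47270 over the 20 arrays. Promoter sequence was at hand for both, from RefSeq on GRCm38.p6, and the 100 bases before the annotated start are shown because cyclic AMP response elements (CRE) near the start of chromogranin genes are well known. Capitals mark matches to the CRE TGACGTCA, its shorter form TGACG or the Egr motif GCGNGGGCG, searched on both strands together with the AP-1 motif TGANTCA; the shorter form lies inside the CRE.
Chga, chr12:102554841-102554940, plus strand: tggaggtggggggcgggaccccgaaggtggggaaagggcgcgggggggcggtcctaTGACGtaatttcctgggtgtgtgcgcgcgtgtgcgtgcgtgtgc
Chgb, chr2:132781542-132781641, plus strand: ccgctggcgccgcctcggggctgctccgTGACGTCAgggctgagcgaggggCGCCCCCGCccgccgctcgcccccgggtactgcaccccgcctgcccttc
Counted from the start, Chgb held the CRE at -72 and an Egr match on the minus strand at -49, and Chga the shorter form at -44. In the windows from 250 bases before to 50 after the start, the CRE was in 1.79% of 32851 mouse promoters, the Egr motif in 5.55%, the shorter form in 20.8% and the AP-1 motif in 7.81%. In that window Rab3d held the shorter form at -214, and no match to these letters was found for Cadps. A match is a description of the letters and not a site.

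Chga read 24593 and 32678 on the unstimulated arrays, 23125 to 36140 (median 29816) over the 8 arrays of 10 nM and 22915 to 35567 (median 31615) over the 10 of 100 nM. On this probe set the range of the arrays overlapped that of the unstimulated pair in every stimulated group. The change over the 100 nM patterns was 0.08 ± 0.17 (95% interval -0.29 to 0.44, adjusted p = 0.82), and the second probe set gave 0.15 ± 0.13 (adjusted p = 0.49). On the second probe set both arrays of 1 pulse of 10 nM and of 1 and 4 pulses of 100 nM were above the unstimulated pair (7877 and 8529), and the other groups overlapped it. Chgb read 35333 and 30447 unstimulated, and 26649 to 34466 (median 30762) at 10 nM. At 100 nM the arrays A and D of Chgb read 36139 and 41797 after 1 pulse, 37758 and 34025 after 2, 47270 and 45069 after 4, 43700 and 31460 after 8, and 33940 and 33600 under tonic GnRH. 4 pulses of 100 nM stood above every other group, and 6 of the 10 arrays exceeded both unstimulated ones. The change over the 100 nM patterns was 0.22 ± 0.13 (95% interval -0.06 to 0.49, adjusted p = 0.29). The second probe set of Chgb, at 50.6 to 236, was below the filter on all 20 arrays and was not tested.

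Over the 4 patterns of 10 nM together, 1 of the 6 genes was called, against 1.91% of tested probe sets. Syt4 was higher by 0.74 ± 0.16 (adjusted p = 0.023). For Snap25 the value was 0.48 ± 0.18 (adjusted p = 0.16), for Cadps -0.44 ± 0.14 (0.10), for Rab3d -0.32 ± 0.15 (0.28), for Chgb -0.11 ± 0.13 (0.72) and for Chga 0.04 ± 0.18 (0.93). The Syt4 call rested on both unstimulated arrays: without A it was 0.75 with an adjusted p of 0.175, and without D 0.74 with 0.177. With the 12 samples whose labels agree it was 0.152, and adjusted p over all alternatives ran from 0.0045 to 0.99.

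Taken pattern by pattern at 100 nM, 0, 1, 4 and 4 of the 6 genes were called after 1, 2, 4 and 8 pulses, and 4 under tonic GnRH. The 5 patterns of 100 nM and the 4 of 10 nM are all set against the same pair of unstimulated arrays, so these comparisons are not independent of each other. After 1 pulse of 100 nM limma called 0 of the 6 genes and 0% of probe sets, with 3 genes (Syt4, Snap25, Cadps) and 664 probe sets at an unadjusted p under 0.05. Syt4 was at 0.89 ± 0.20 there (adjusted p = 0.15). After 2 pulses 1 of the 6 was called, against 0.624% of probe sets: Syt4, at 1.07 ± 0.20 (adjusted p = 0.019). Snap25 was at 0.97 ± 0.22 (adjusted p = 0.057), and passed without tonic 100 nM A (0.0492) or D (0.0493). This Syt4 call was lost without either array of 2 pulses (A 0.0834, D 0.189) or either unstimulated array (A 0.131, D 0.123), and with the 12 samples whose labels agree (0.353), these being adjusted p values.

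After 4 pulses of 100 nM 4 of the 6 genes were called, against 14.9% of probe sets. Syt4 rose by 1.66 ± 0.20 (adjusted p = 6.0e-05) and Snap25 by 1.25 ± 0.22 (0.0017), while Rab3d changed by -0.77 ± 0.19 (0.013) and Cadps by -0.75 ± 0.18 (0.0089). Chgb was at 0.49 ± 0.17 with an adjusted p of 0.057, and it passed without 8 pulses of 100 nM A (0.0345) or D (0.0346). Without array D of 4 pulses the adjusted p was 0.157 for Rab3d and 0.0594 for Cadps, without unstimulated D 0.0824 and 0.124, and without unstimulated A it was 0.0507 for Rab3d. With the 12 samples whose labels agree, array A alone stood for this group and for the unstimulated pair. The changes were then 1.31 for Syt4, 1.36 for Snap25, -0.62 for Rab3d and -0.62 for Cadps. These rest on 1 array against 1, and no call is made from them. Both arrays of this group had the raised Gapdh ratio.

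After 8 pulses of 100 nM the same 4 genes were called, against 14.3% of probe sets, with Syt4 at 1.74 ± 0.20, Snap25 at 1.26 ± 0.22, Rab3d at -1.18 ± 0.19 and Cadps at -0.88 ± 0.18. Their adjusted p values were 1.6e-05, 0.0010, 0.00050 and 0.0026, and without unstimulated D that of Cadps was 0.0537. With the 12 samples whose labels agree, array A alone stood for 8 pulses and for the unstimulated pair. The changes were then -1.07 for Rab3d and -0.61 for Cadps, and no call is made from 1 array against 1. Under tonic 100 nM the same 4 genes were called again, against 20.4% of probe sets. Syt4 was at 1.64 ± 0.20, Snap25 at 1.14 ± 0.22, Rab3d at -1.26 ± 0.19 and Cadps at -1.04 ± 0.18, with adjusted p values of 2.2e-05, 0.0013, 0.00016 and 0.00043. In linear terms Rab3d stood at 0.386 and Cadps at 0.463 of their unstimulated mean signal. With the 12 samples whose labels agree, tonic 100 nM was again 1 array against 1. The changes were then 1.17 for Snap25, -1.20 for Rab3d and -0.82 for Cadps, and no call is made from them. In the main fit Chga and Chgb were not called in any 100 nM pattern. After 4 pulses, with all 20 arrays, limma did call Chgb with a stricter filter on low signals (adjusted p = 0.0433). It also did so with the letter as a fixed (0.0244) or random (0.0265) replicate block.

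**Figure D2:**
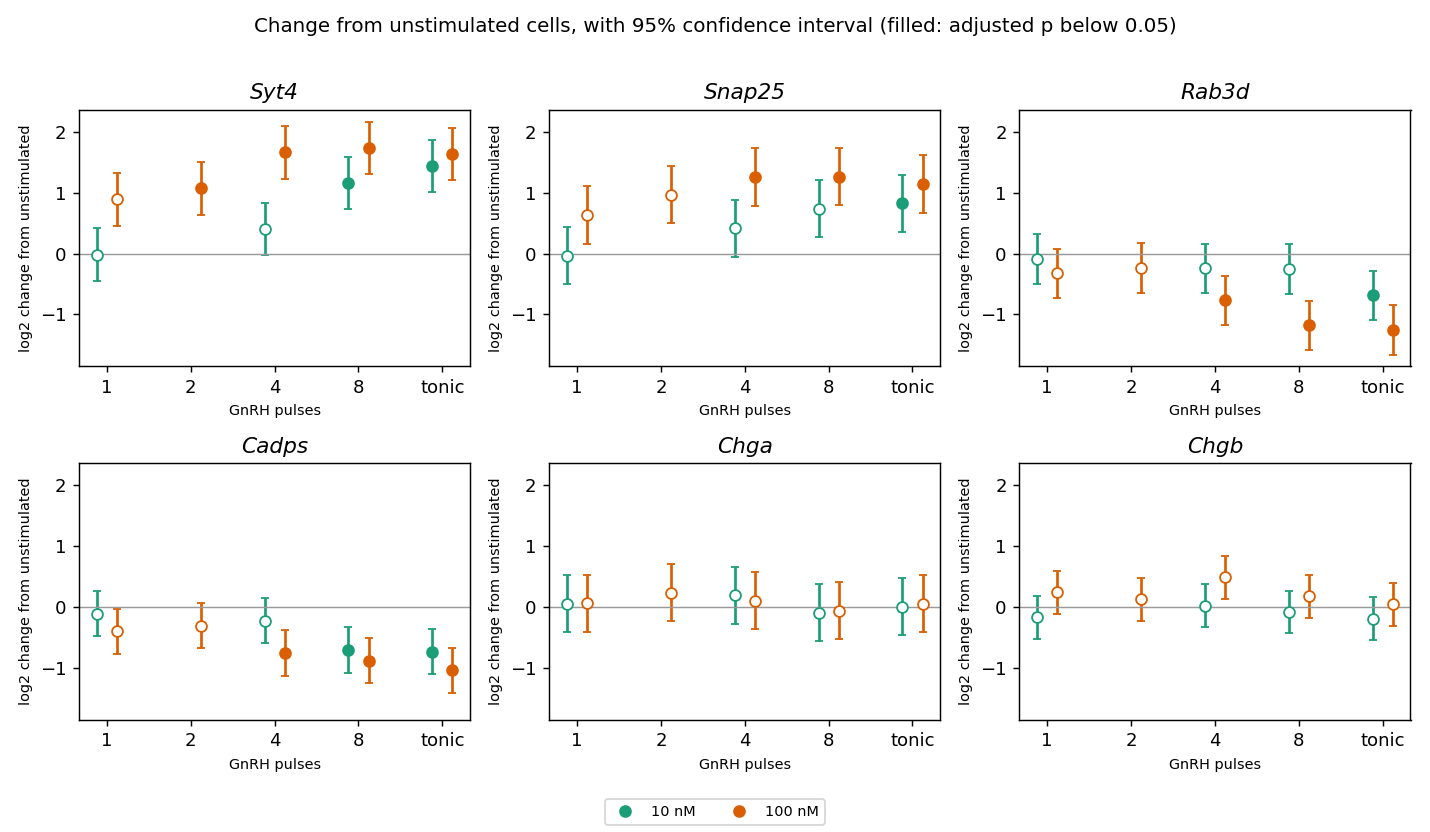
Log2 change from the unstimulated arrays for the 6 genes by GnRH pattern, 10 nM in green and 100 nM in orange; points are group differences from 2 against 2 arrays, bars 95% confidence intervals, and filled points have an adjusted p below 0.05. Syt4 reaches 1.74 and Rab3d -1.26 at 100 nM, whereas the intervals of Chga all include 0.

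At 10 nM calls appeared from 8 pulses on. Limma called 0 of the 6 genes after 1 pulse, against 0% of probe sets, and 0 after 4 pulses, against 0.0589%; none of the 6 had an unadjusted p under 0.05 in either, beside 708 and 1109 probe sets. Syt4 was at -0.02 ± 0.20 after 1 pulse of 10 nM and at 0.40 ± 0.20 after 4 (adjusted p = 0.99 and 0.40). After 8 pulses 2 of the 6 were called, against 2.23% of probe sets: Syt4 at 1.16 ± 0.20 (adjusted p = 0.0039) and Cadps at -0.71 ± 0.18 (0.042). Without array C of 8 pulses Syt4 had an adjusted p of 0.0725, and the Cadps call was lost in 21 of 34 alternatives, without unstimulated D with a change of -0.51 and an adjusted p of 0.323. Snap25 was at 0.74 ± 0.22 (adjusted p = 0.10). With the 12 samples whose labels agree, adjusted p was 0.0566 for Syt4 and 0.416 for Cadps.

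Under tonic 10 nM 4 of the 6 were called, against 7.41% of probe sets, and they were the 4 called under tonic 100 nM. Syt4 was at 1.44 ± 0.20 (adjusted p = 0.00025), Cadps at -0.73 ± 0.18 (0.016), Snap25 at 0.82 ± 0.22 (0.032) and Rab3d at -0.69 ± 0.19 (0.036). With the 12 samples whose labels agree, tonic array B alone stood against unstimulated array A. The changes were then 0.98 for Snap25, -0.66 for Rab3d and -0.50 for Cadps, and no call is made from 1 array against 1. Snap25 lost its call without unstimulated A (0.54, adjusted p = 0.30) or without tonic 10 nM B (0.0918) or C (0.163). Rab3d lost it without unstimulated A (0.129) or D (0.148) or tonic B (0.175) or C (0.111), and Cadps without tonic B (0.0872) or C (0.0822) or unstimulated D (0.17).

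A slope over pulse number, in log2 units per doubling, used 1, 2, 4 and 8 pulses at 100 nM and 1, 4 and 8 at 10 nM. RNA was harvested when the 4 h ended. If all schedules began together, columns with more pulses had also seen their last one more recently. At 100 nM 3 of the 6 genes had a slope past the threshold, against 6.89% of probe sets. Syt4 rose by 0.31 ± 0.06 per doubling (adjusted p = 0.0060; 0.25 among A and 0.38 among D arrays), Rab3d changed by -0.31 ± 0.06 (0.0045; -0.34 and -0.28) and Cadps by -0.19 ± 0.06 (0.048; -0.22 and -0.16). The Cadps call was lost in 24 of 34 alternatives, among them without 1 pulse of 100 nM A (slope -0.13). In another, with groups from the second label field, the Cadps slope turned to 0.0108 and was not called either. Calls were also lost for Syt4 without 1 pulse D (0.28) and for Rab3d without 1 pulse A (-0.25). Snap25 had a slope of 0.22 ± 0.07 (adjusted p = 0.075), and limma called it with the letter as a fixed (0.0319) or random (0.0348) replicate block. With the 12 samples whose labels agree, adjusted p for the slope was 0.185 for Syt4, 0.158 for Rab3d and 0.264 for Cadps.

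At 10 nM 1 of the 6 genes was called on its slope, against 2.1% of probe sets: Syt4, at 0.37 ± 0.07 per doubling (adjusted p = 0.0049; 0.33 among B and 0.40 among C arrays). Without 1 pulse of 10 nM B the adjusted p was 0.07, without 1 pulse C 0.0726, without 8 pulses C 0.0595 and with the 12 samples whose labels agree 0.10. The arrays of a letter deviated together at 10 nM, and also in 14 of 15 group pairs of A and D. With the letter as a fixed replicate block Snap25 was called too at 10 nM, with a slope of 0.25 (0.23 among B, 0.27 among C). Its adjusted p was then 0.0307 against 0.083 unblocked. Cadps had a slope of -0.18 ± 0.06 (adjusted p = 0.13) and Rab3d of -0.06 ± 0.06 (0.76). The slopes at 100 nM and 10 nM were not shown to differ: limma called 0 of the 6 genes, against 0.0118% of probe sets, with Rab3d alone at an unadjusted p under 0.05 (difference -0.25 ± 0.09, 95% interval -0.44 to -0.07, adjusted p = 0.75). For Syt4 the slope difference was -0.05, with a 95% interval of -0.25 to 0.14.

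Continuous GnRH was set against the densest pulses at each dose. At 100 nM limma called 0 of the 6 genes and 0.0118% of probe sets, with 0 genes at an unadjusted p under 0.05 beside 328 probe sets. The difference, tonic minus 8 pulses, was -0.10 for Syt4 (95% interval -0.53 to 0.33), -0.12 for Snap25 (-0.59 to 0.35), -0.08 for Rab3d (-0.48 to 0.33) and -0.16 for Cadps (-0.53 to 0.22). At 10 nM 0 of the 6 and 0% of probe sets were called, with Rab3d and 220 probe sets at an unadjusted p under 0.05. Rab3d differed there by -0.43 ± 0.19 (95% interval -0.84 to -0.03, adjusted p = 1.00), and Syt4 by 0.28 (-0.14 to 0.71). The difference between doses in this contrast called 0 of the 6 and 0% of probe sets, with 0 genes and 181 probe sets at an unadjusted p under 0.05. The intervals of Syt4 are wide enough to hold a change the size of its slope per doubling.

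**Figure D3:**
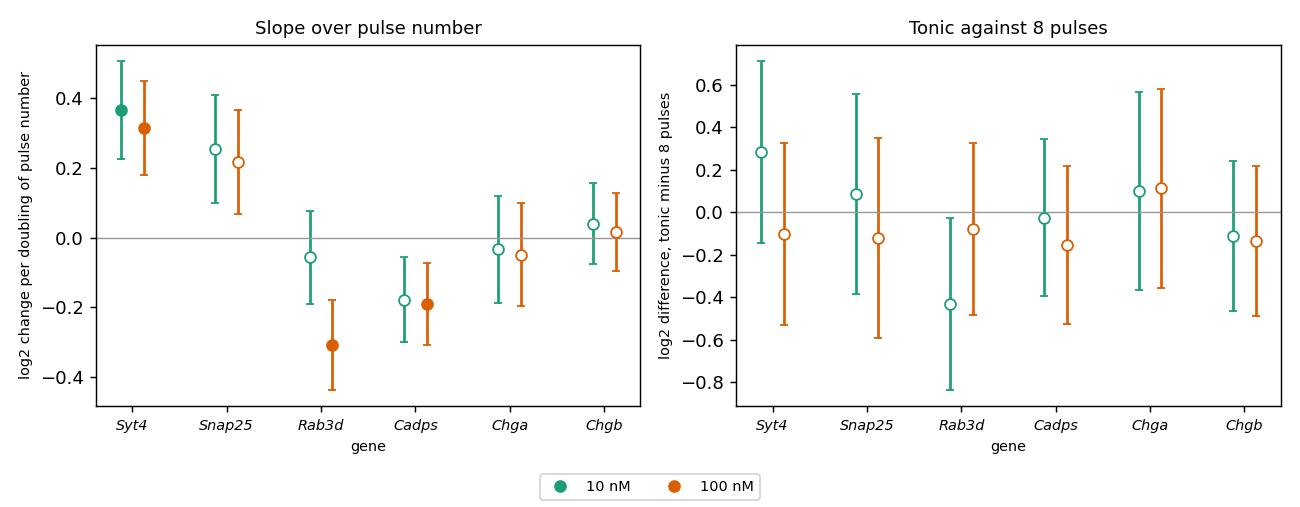
Left, log2 change per doubling of pulse number; right, log2 difference of tonic minus 8 pulses; 10 nM in green, 100 nM in orange, with 95% confidence intervals and filled points for an adjusted p below 0.05. The slopes of Syt4 are 0.37 and 0.31, and no point of the right panel is filled.

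Over the patterns given at both doses (1, 4 and 8 pulses and tonic), 5 of the 6 genes were called between 100 nM and 10 nM, against 23.6% of probe sets, the largest share called in any of the 18 comparisons. Syt4 was higher at 100 nM by 0.73 ± 0.10 (adjusted p = 9.3e-05), Snap25 by 0.59 ± 0.11 (0.0012) and Chgb by 0.34 ± 0.08 (0.0065). Rab3d differed by -0.57 ± 0.10 (adjusted p = 0.00051) and Cadps by -0.32 ± 0.09 (0.013), and Chga by -0.00 ± 0.11 (0.99). Each dose has its own array letters, so dose and letter cannot be told apart here. Without the 3 arrays of raised Gapdh ratio, which also takes away the pattern of 4 pulses, Syt4 and Rab3d were still called, but adjusted p was 0.0566 for Snap25 (0.44), 0.137 for Cadps (-0.28) and 0.162 for Chgb (0.22). The other probe set of Cadps gave -0.28 with an adjusted p of 0.0868, and a random letter block also ended the Cadps call (0.0623). With the 12 samples whose labels agree, adjusted p was 0.0669 for Rab3d and 0.147 for Cadps.

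In the mean signals of matched patterns, the dose gap of Syt4 was 21071 against 11139 after 1 pulse, 36988 against 14997 after 4, 38004 against 25422 after 8 and 35983 against 31002 under tonic GnRH. For Rab3d the 100 nM and 10 nM means were 2337 and 2763 after 1 pulse, 1669 and 2499 after 4, 1212 and 2471 after 8, and 1138 and 1771 under tonic GnRH. The Syt4 arrays of the 2 doses overlapped under tonic GnRH alone, and the Rab3d arrays after 1 pulse alone. Whether the gap itself differed between patterns was not tested gene by gene beyond the contrasts above.

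Across the 10 group means of log2 signal, Syt4 and Snap25 had a Pearson correlation of 0.97 and Rab3d and Cadps of 0.90, while Syt4 and Cadps had -0.94 and Syt4 and Rab3d -0.85. Chga had correlations of -0.20 to 0.38 with the other 5, and Chgb of -0.31 to 0.56 with the others. These are descriptions over 10 points that share arrays and scaling. Candidates were 1437 genes (1438 for the chromogranins) with a tested probe set of their own whose group means spanned at least 1 log2 unit. Those closest to Syt4 were Fndc3a (0.99), Nupr1 (0.99) and Tpm1 (0.99). Closest to Snap25 were Cpne3, Eif1a and Diaph1 (0.98 for each), to Rab3d Nicn1, Btrc and Slc37a4 (0.99, 0.98 and 0.97), and to Cadps Vegfd, Cmtr1 and Sirpa (0.99, 0.98 and 0.96). Chgb was closest to Rbm39 (0.95), Col9a1 (0.93) and Dhx9 (0.93). For Chga, whose own group means spanned 0.33 log2 units, the closest were Fndc7 (0.71), Pax4 (0.69) and Dcx (0.69).

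Of the wider exocytosis machinery, 36 of 48 tested genes did not pass the test at 100 nM. A list of 86 genes in 7 roles, the 6 members included, had 57 genes on the array and 48 tested. Over the 100 nM patterns 12 of the 48 were called (25%, where 14.2% of all tested probe sets were), 7 higher and 5 lower, with a median log2 change of 0.03 against -0.05 over all tested probe sets. Of the 42 genes other than the members, 5 were higher and 3 lower (19%), a share near that of all probe sets. Without unstimulated D 3 of the 48 were called, and without unstimulated A 7. Over the 10 nM patterns Syt4 was the 1 gene of 48 called (2.08%, beside 1.91% of all tested probe sets), and 0 of the other 42.

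Counts by role are small and are to be read beside the 14.2% of all probe sets called. Among SNARE proteins and their partners 3 of 17 rose and 2 fell (29.4%). Stx3, a plasma membrane syntaxin, read 2305 and 2385 unstimulated, 3396 to 14809 over the 100 nM arrays, and changed by 1.52 ± 0.16 (adjusted p = 6.8e-06), the largest change of the list. Its mean signal was 10351 after 8 pulses and 12884 under tonic 100 nM, so the signal was highest in the groups where Syt4 was also high. A second probe set of Stx3 gave 0.70 ± 0.27 (adjusted p = 0.096). Stx7, an endosomal syntaxin, rose by 0.54 ± 0.13 (adjusted p = 0.0083). Stx1a, the syntaxin that partners Snap25 in neuroendocrine cells, changed by -0.51 ± 0.16 (adjusted p = 0.038), from 4658 and 6358 unstimulated to 3080 and 3182 under tonic 100 nM. Stxbp2, a Munc18 protein that binds syntaxins, changed by -0.51 ± 0.15 (adjusted p = 0.027), but its other probe set by 0.03 (0.92).

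Of 10 tested genes for granule cargo and its processing, 2 rose and 0 fell (20%, against 14.2% of all probe sets): Ptprn, a granule membrane protein, by 0.82 ± 0.18 (adjusted p = 0.0050), and Scg2, the granin secretogranin II, by 0.59 ± 0.13 (0.0055). Scg2 read 43303 and 44834 unstimulated and 53341 to 83348 at 100 nM, so this granin stood above its unstimulated arrays on all of the 100 nM arrays while the brighter Chga probe set overlapped its own. Among 6 synaptotagmins and related calcium sensors, Syt4 rose and Syt2, a fast calcium sensor of synapses, fell by 0.97 on the log2 scale (adjusted p = 0.0070). Syt2 was dim, from 890 and 939 unstimulated to 111 and 396 under tonic 100 nM. Of 6 Rab proteins and effectors Rab3d fell and Rab11a, of the recycling endosome, rose by 0.36 ± 0.12 (adjusted p = 0.0499; its other probe set gave 0.29, 0.34). Cadps was the 1 of 3 priming and clamping factors called, and 0 of 3 exocyst subunits and 0 of 3 vesicle membrane proteins passed.

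**Figure D4:**
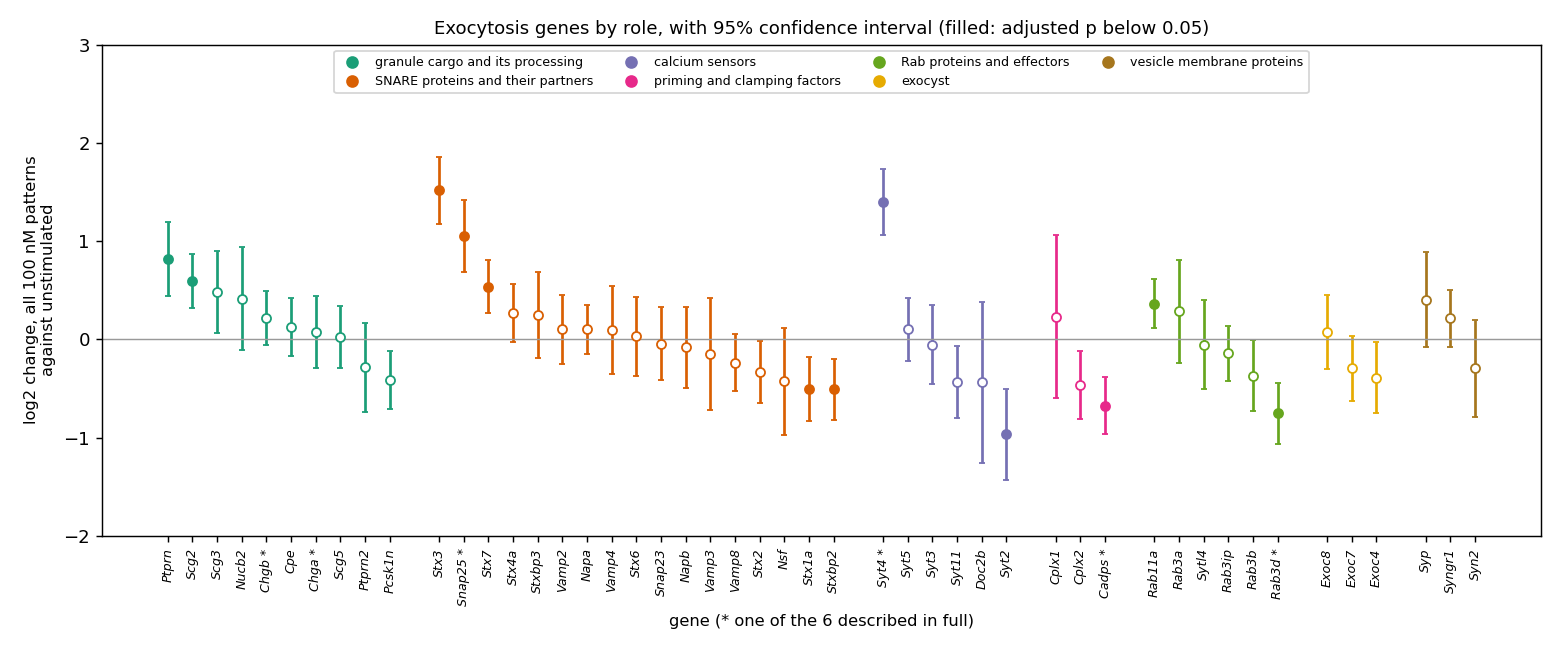
Log2 change over all 100 nM patterns against the unstimulated arrays for the 48 tested exocytosis genes, grouped by role, with 95% confidence intervals (10 against 2 arrays); filled points have an adjusted p below 0.05 and asterisks mark the 6 genes described in full. Stx3 (1.52), Syt4 (1.40) and Snap25 (1.05) are at the top and Syt2 (-0.97), Rab3d (-0.75) and Cadps (-0.68) at the bottom.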

How the data were processed

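The deposited values are probe set signals on a linear scale of intensity, which the authors made with MAS5, per the submitters' processing notes; no version or target value is named in the sources used here. All 20 columns were mapped to samples by title and 0 were left unmapped. Signals were taken as log2(signal + 166.8), the constant being the 25th percentile of the table. After removal of 66 control probe sets, those above 427 (the 40th percentile) on at least 2 arrays were tested, 8491 of 12488. A group-means model of all 20 arrays was fitted with limma 3.58.1 in R 4.3.3 (eBayes with an intensity trend, 10 residual and 8.20 prior degrees of freedom). Tests are two-sided with Benjamini-Hochberg adjustment within a comparison at 0.05; intervals are at 95%. With 1 array of a group left out, the lone array is assumed to vary like the other groups. The same holds for the lone arrays among the samples whose labels agree. There only 4 and 8 pulses of 10 nM keep both arrays, so the residual spread comes from these groups alone.

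Gene symbols come from the platform annotation, and where a gene has several probe sets, the brightest on average stands for it. Named are all probe sets of the 6 members, up to 12 genes of the wider list past the threshold in either dose against unstimulated, and the 3 genes whose group means correlate best with each member's. The members and lists were chosen with earlier results of these data known. Other genes named are the marker lists of gonadotropes and other cell types.

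As a check of pairing, deviations of arrays sharing a letter were correlated between groups. At 10 nM the correlation exceeded 0.1 in 6 of 6 group pairs (0.13 to 0.35), so the letter B or C counts as a pairing there. For A and D it did so in 14 of 15 (0.08 to 0.32), so arrays of these letters also deviated together and may be paired. The main tests use no letter block, and the blocks are alternatives. Alternatives were other scalings, other handling of low values, other filters, a fit without the intensity trend, a fixed or a random letter block, fits limited to the compared groups, other label fields, leaving out the 3 arrays of raised Gapdh ratio or each array, and other probe sets. Promoter sequences come from RefSeq (GRCm38.p6), which matched 4 of the 6 members. The tests were tried on simulated data before use.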

Additional observations from a re-analysis of the deposited data

How the results depend on the processing

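Of 3594 log2 changes of the 6 genes under the alternatives, 3431 kept their side of the threshold, 141 lost a call and 18 gained one. In 4 a called change reversed its direction. A change of direction between 2 uncalled values was not counted as a reversal and is among the 3431. The 4 came from groups taken from the second label field: Syt4 over the 10 nM patterns (-0.0943), after 2 pulses of 100 nM (-0.016) and in the 100 nM slope (-0.000125), and Cadps in the 100 nM slope (0.0108). Of 677 counts of called genes, 589 stayed within 1.5 times the reported count. With groups from the second label field all counts were 0. The 12 samples whose labels agree hold array A alone of the unstimulated and of each 100 nM group, so lower counts there cannot be told apart from the loss of arrays. With these 12 samples every count that moved by over 1.5 times was lower. Single counts are not given for them, because most groups then hold 1 array.

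With a fixed replicate block the members called were 2 over the 10 nM patterns, 1 after 1 pulse and 2 after 2 pulses of 100 nM, and 2 in the 10 nM slope, with 5 of the wider list at 10 nM. With a random one there were 2 after 2 pulses of 100 nM and 2 in the 10 nM slope. The fixed block raised the probe sets called at 10 nM from 162 to 699 and at 100 nM from 1207 to 1872. Neither block moved another member count by over 1.5 times, although Chgb gained a call after 4 pulses of 100 nM (adjusted p = 0.0244 fixed, 0.0265 random) and Snap25 in the 100 nM slope (0.0319 and 0.0348). Unstimulated and 10 nM arrays share no letter, so a block cannot pair them: there Cadps over the 10 nM patterns (0.0484) and Snap25 after 8 pulses of 10 nM (0.0408) passed with the fixed block, and not with the random one (0.138 and 0.0969).

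After 2 pulses of 100 nM the count was 0 with equal array medians, no filter or no intensity trend and 2 with the stricter filter; after 1 pulse it was 1 with quantile normalization. After 8 pulses of 10 nM it was 1 with quantile normalization, equal medians, no filter, no intensity trend, only the compared groups or the other probe sets. Under tonic 10 nM it was 2 with no filter and 1 with only the compared groups. Over the 10 nM patterns it was 0 with no intensity trend, where the wider list also had 0; that list had 2 with quantile normalization and 2 with only the compared groups. Between doses it was 2 without the 3 arrays of raised Gapdh ratio, a setting in which 4 pulses of 100 nM cannot be compared.

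Leaving out each array in turn gave 2 to 4 members over the 100 nM patterns, 0 to 1 over the 10 nM patterns, 0 to 2 after 2, 2 to 5 after 4 and 3 to 4 after 8 pulses of 100 nM, 0 to 2 after 8 pulses of 10 nM, 1 to 4 under tonic 10 nM, 1 to 3 in the 100 nM slope and 0 to 1 in the 10 nM slope; the wider list ran from 3 to 14 at 100 nM and 0 to 1 at 10 nM. Without unstimulated D 365 probe sets were called over the 100 nM patterns and without A 493, against 1207. Equal array medians moved the median change of all probe sets after 4 pulses of 10 nM from -0.07 to 0.04. It also raised the share of higher calls, from 106 of 162 to 105 of 127 over the 10 nM patterns, from 133 of 189 to 158 of 189 after 8 pulses of 10 nM, from 312 of 585 to 323 of 491 in the 100 nM slope and from 132 of 178 to 139 of 164 in the 10 nM slope. The causes of these shifts were not tested.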
